A study of Homo sapiens with 6 samples.

Results

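Adherens and tight junction core genes were taken by symbol from the deposited table of Calu3 cells treated with siRNA against BRD8 or with a negative control siRNA. The set holds 9 genes of 26364 in the table, CDH1, CTNNA1, CTNNB1, CTNND1, EPCAM, TJP1, OCLN, F11R and CGN. All 9 were found and all 9 passed the filter on low values. Calu3 is a human lung adenocarcinoma line. The tested libraries, called siBRD8, came from Calu3 cells given siRNA against BRD8, a bromodomain protein of the NuA4 complex, which acetylates histones. The other libraries, called siNC, came from Calu3 cells given negative control siRNA. The labels give 20 nmol of siRNA and the RNAiMax reagent for both, and no time after transfection. Each treatment had 3 RNA-seq libraries of total RNA. Only 1 product against BRD8 was used, so effects of the reagent apart from BRD8 loss cannot be told apart from effects of BRD8 loss. Separate cultures are not mentioned in the labels, so the p-values here rest on a spread among libraries that may be technical.

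Epithelial cells are held together by belts near their apical border. In the adherens junction, E-cadherin binds E-cadherin of the neighbouring cell, and its tail carries beta-catenin and p120-catenin, while alpha-catenin joins beta-catenin to actin. In the tight junction, the membrane proteins occludin, JAM-A and the claudins are anchored by ZO scaffold proteins and cingulin, and they set how freely ions and water pass between airway cells. Beta-catenin has a further role as a coactivator of Wnt target genes in the nucleus.

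E-cadherin, beta-catenin and cingulin transcripts rose after BRD8 siRNA. No gene of the 9 passed as lower, and none differed by as much as 1.5-fold. EPCAM and TJP1 had nearly the same mean level in both groups. Of the 15354 genes tested in limma with adjustment by the method of Benjamini and Hochberg, 10.1% were called higher and 8.93% lower at an adjusted p under 0.05, against 3 of the 9 junction genes higher and 0 lower. The counts were also 3 and 0 with edgeR, which called 10.7% of all genes higher and 8.66% lower, and with DESeq2, which called 11.2% higher and 10.5% lower. Without siNC library 2, where 15.9% of all genes were called higher and 18.1% lower, 3 of the 9 were higher and CTNND1 was lower. Without any other single library 2 were higher and 0 lower. In those settings 832 to 1142 of the 15354 genes were called higher and 528 to 838 lower, against 1549 and 1371 with all 6 libraries. Calls lost in those settings, here and below, stand beside that drop over all genes. At an unadjusted p under 0.05 in limma, F11R joined CDH1, CTNNB1 and CGN, where 33.1% of all genes tested lay under that value. The libraries of the groups did not overlap for 5 of the 9 genes, all higher after BRD8 siRNA, where this held for 18.9% of all genes tested in that direction and 17.9% in the other. The median log2 fold change was 0.15 over the 9 genes and -0.01 over all genes tested.

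The libraries held 33640814 to 37896467 reads assigned to genes. BRD8 itself was at 1312, 1084 and 1156 normalized counts in siBRD8 libraries 1 to 3, against 2751, 2928 and 3067 in siNC libraries 1 to 3. The siNC library 2 lay apart from the other 5 on a second principal component with 20.6% of the variance. The epithelial identity of the cells was checked with 10 markers, CDH1 and EPCAM among them, of which all passed the filter and 5 rose (limma), beside 10.1% of all genes. The rises numbered 4 without siBRD8 library 1, 3 without siBRD8 library 2 or 3 or siNC library 1, and 2 without siNC library 3. Without siNC library 2, 9 of the markers rose, where 15.9% of all genes were called higher. Their summed level was 497503 to 560529 normalized counts in siBRD8 libraries and 375575 to 473872 in siNC libraries. KRT8 and KRT18 had the highest counts of the 10, and the part of this sum in the junction results was not tested. Fibroblast markers summed to 216 to 233 in siBRD8 libraries and 218 to 229 in siNC libraries, with COL1A2 and THY1 at 0 reads in all 6 libraries among 8 markers and 1 of the 2 tested called higher, a call absent without siBRD8 library 1 or 3 or siNC library 3. The 7 endothelial markers summed to 43.6 to 50.3 in siBRD8 libraries and 36.6 to 38.9 in siNC libraries, and the 1 tested was not called. The 8 blood cell markers summed to 1837 to 2134 in siBRD8 libraries and 1354 to 1756 in siNC libraries, nearly all of it CD68. CD68 was called higher, and no blood cell marker was called without any single library other than siNC library 2. The 5 stratified and basal epithelial markers summed to 1672 to 1953 in siBRD8 libraries and 1187 to 1625 in siNC libraries. KRT14, TP63 and KRT13 rose, 3 of the 5 beside 10.1% of all genes, at means of 756, 27.2 and 69.7 in siBRD8 and 303, 13.1 and 41.5 in siNC libraries. KRT5 and KRT6A were not called (log2 fold changes -0.06 and -0.03). The rises numbered 1 without any single siBRD8 library or siNC library 3 and 2 without siNC library 1 or 2. In bulk RNA a change in the number of cells with a transcript and a change in its level per cell cannot be told apart.

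**Figure D1:**
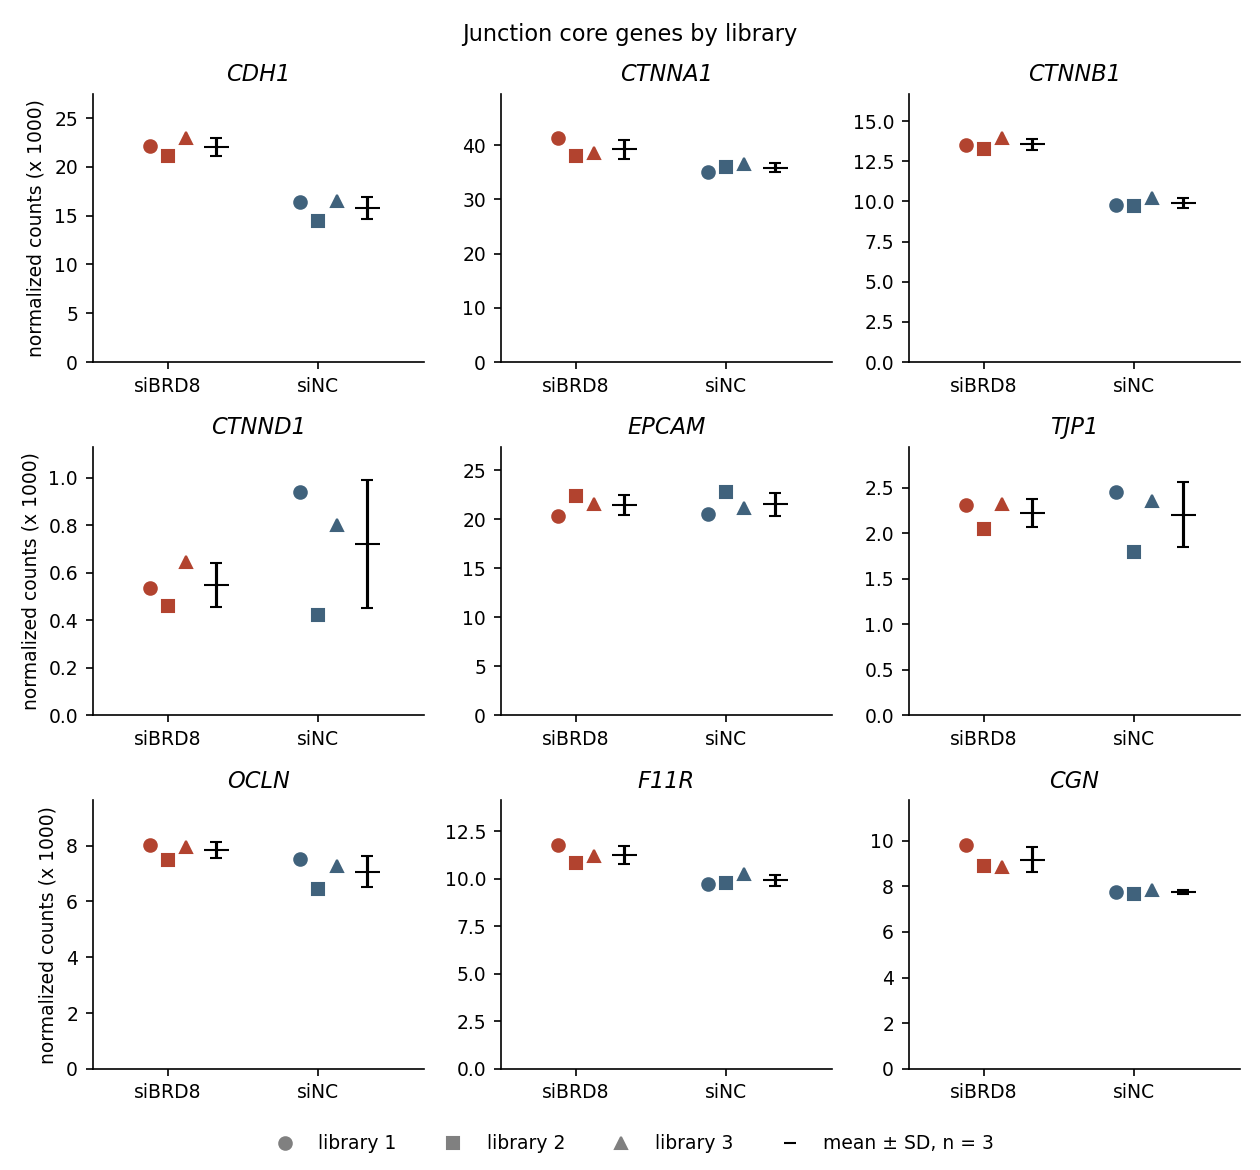
Normalized counts (in units of 1000, linear axis from 0) of the 9 junction core genes in siBRD8 (left) and siNC (right) libraries, with the library number as the symbol shape and black marks for the mean and SD of 3 libraries. CDH1, CTNNB1, CGN, F11R and CTNNA1 were higher in every siBRD8 library than in any siNC library, while CTNND1 was lowest in siNC library 2 at 422.

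RefSeq promoter sequences of GRCh38.p14 matched 5 of the 9 genes, with 12 entries in all. Of the genes that rose, CTNNB1 and CGN have 1 entry each, so the 250 bases before their starts are shown, read 5′ to 3′ on the plus strand, to set the sequence of 2 promoters with higher transcript levels side by side. The CTNNB1 stretch is chr3:41199255-41199504 and the CGN stretch is chr1:151511137-151511386. Capitals mark the GC box letters GGGCGG or their reverse complement CCGCCC, and a pair of the CGN matches share a base.
CTNNB1: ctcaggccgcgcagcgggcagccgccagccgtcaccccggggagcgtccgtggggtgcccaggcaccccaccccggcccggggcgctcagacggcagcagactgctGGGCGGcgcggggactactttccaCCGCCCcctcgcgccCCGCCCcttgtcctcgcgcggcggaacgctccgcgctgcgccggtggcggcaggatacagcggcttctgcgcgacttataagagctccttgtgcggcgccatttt
CGN: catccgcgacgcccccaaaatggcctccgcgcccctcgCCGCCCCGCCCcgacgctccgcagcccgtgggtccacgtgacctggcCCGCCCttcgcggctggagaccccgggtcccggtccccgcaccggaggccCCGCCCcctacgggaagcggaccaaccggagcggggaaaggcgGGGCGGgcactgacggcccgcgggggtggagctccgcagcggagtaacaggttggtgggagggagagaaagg
The CTNNB1 stretch holds 3 GC box matches and the CGN stretch 5, and 42.6% of 35116 promoter entries of this length hold at least 1. G and C make up 74.4% of the CTNNB1 bases and 76.0% of the CGN bases, against a median of 58.0% over all entries. Genes that did not pass the test hold such letters too: the 4 CTNNA1 entries have 9, 4, 0 and 0 matches, the 4 TJP1 entries 2, 3, 1 and 0, and the 2 OCLN entries 1 and 0, and G and C make up 80.4% of the bases in 1 of the CTNNA1 entries. The E-box letters CACCTG and CAGGTG, which the SNAI and ZEB repressors of E-cadherin are known to bind, occur in neither stretch and in 17.5% of all entries. They occur once in each of the 2 OCLN entries, once in 1 of the 4 TJP1 entries and not in those of CTNNA1. The E-cadherin gene CDH1 had no entry, so its promoter was not searched. The letters CACGTG, another E-box, occur once in the CGN stretch, not in that of CTNNB1, and in 6.34% of all entries. These matches describe letters only.

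E-cadherin (CDH1), the homophilic adhesion receptor of epithelial cells, was at 22112, 21115 and 22925 normalized counts in siBRD8 libraries, against 16369, 14460 and 16479 in siNC libraries. The lowest siBRD8 library was well above the highest siNC library. The mean was 22051 ± 906 in siBRD8 and 15769 ± 1135 in siNC libraries (SD, n = 3 each), a 1.40-fold difference with a 95% interval of 1.24 to 1.58. The log2 fold change was 0.49 (SE 0.0781; limma, adjusted p = 0.00394) and it passed the threshold under all 18 alternative settings, with adjusted p between 1.36e-06 and 0.0272. Exons of an antisense gene overlap 5.62% of the CDH1 exon bases in GENCODE release 29, and strand is not marked by the TruSeq v2 kit used, so their reads cannot be told apart.

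Beta-catenin (CTNNB1), the cadherin partner that also acts in Wnt signalling, moved by nearly the same size. It was at 13520, 13248 and 13934 normalized counts in siBRD8 libraries and at 9774, 9692 and 10235 in siNC libraries, with no overlap. The difference was 1.37-fold (95% interval 1.24 to 1.52) and the log2 fold change 0.45 (SE 0.0652; limma, adjusted p = 0.00232). This call held under all 18 alternatives as well, at adjusted p of at most 0.0200. Within each library CTNNB1 was lower than CDH1 by a log2 ratio of -0.70 ± 0.024 in siBRD8 and -0.67 ± 0.085 in siNC libraries (SD, n = 3 each). The difference of these ratios was -0.03 (exact two-sided permutation test, p = 0.8; the smallest p of 3 against 3 is 0.1), less than the spread between the siNC libraries, while both genes were higher after BRD8 siRNA. Across the libraries the ratio ranged from -0.72 to -0.67 in siBRD8 and from -0.74 to -0.58 in siNC.

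Alpha-catenin (CTNNA1), which links the cadherin complex to actin, did not pass the test. Its level was 41244, 37957 and 38517 normalized counts in siBRD8 libraries, against 34946, 35957 and 36560 in siNC libraries. All siBRD8 values were above all siNC values, but the difference was only 1.10-fold (95% interval 0.981 to 1.22; log2 fold change 0.13, SE 0.0699; limma, adjusted p = 0.232). Relative to CDH1 in the same library, the CTNNA1 log2 ratio was 0.90, 0.85 and 0.75 in siBRD8 libraries and 1.09, 1.31 and 1.15 in siNC libraries. Every siBRD8 ratio was thus below every siNC ratio, by 0.35 on average (exact two-sided permutation test, p = 0.1, adjusted p = 0.24 over the 12 ratios compared). No ratio could pass an adjusted threshold of 0.05 with 3 libraries against 3.

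The p120-catenin gene (CTNND1), whose protein holds cadherin at the cell surface, was the only one of the 9 with a clearly lower mean in siBRD8, and the one with the widest spread. It was at 536, 463 and 648 normalized counts in siBRD8 libraries and at 942, 422 and 801 in siNC libraries, so the groups overlap only through siNC library 2. The log2 fold change was -0.33 (SE 0.267; limma, adjusted p = 0.437), and the 95% interval reaches from 0.524-fold to 1.21-fold. Without siNC library 2 it was -0.67 (adjusted p = 0.00268), a call made in that setting alone of the 18. Relative to CDH1 in the same library, the CTNND1 log2 ratio was -5.36, -5.51 and -5.14 in siBRD8 libraries and -4.12, -5.09 and -4.36 in siNC libraries. These ratios do not overlap, and their difference was -0.81 (exact two-sided permutation test, p = 0.1, adjusted p = 0.24 over the 12 ratios). That difference includes the CDH1 rise of 0.49, beside -0.33 for CTNND1 alone. The nearest ratios, -5.14 in siBRD8 library 3 and -5.09 in siNC library 2, were close. CTNND1 had 3847 reads over all 6 libraries. In RefSeq, 99.4% of the CTNND1 span lies inside the readthrough gene TMX2-CTNND1 on the same strand, while the exons of the pair share 321 bases, 3.65% of the CTNND1 exon bases, in GENCODE release 29. The readthrough gene is listed in the deposited table with 0 reads in all 6 libraries. How reads in exons shared by both genes were counted is not given in the sources used here, so the CTNND1 level is uncertain.

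EPCAM, an epithelial adhesion glycoprotein that binds claudin-7, was at 20358, 22406 and 21536 normalized counts in siBRD8 libraries, against 20561, 22812 and 21155 in siNC libraries. The groups fully interleave. The mean was 21433 ± 1028 in siBRD8 and 21509 ± 1166 in siNC libraries (SD, n = 3 each), and the fold change had a 95% interval of 0.887 to 1.12 (limma, adjusted p = 0.972). A change of the size seen for CDH1 thus lies outside the EPCAM interval.

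Among the tight junction members, only cingulin (CGN), a cytoplasmic plaque protein that binds ZO-1, passed the test. It was at 9804, 8874 and 8821 normalized counts in siBRD8 libraries, against 7732, 7673 and 7849 in siNC libraries. The groups do not overlap and the siNC libraries are close together. The difference was 1.18-fold (95% interval 1.06 to 1.32; log2 fold change 0.24, SE 0.0701; limma, adjusted p = 0.0438). The call rests near the threshold: adjusted p was 0.133, 0.104 and 0.0964 without siBRD8 libraries 1, 2 and 3, 0.101 without siNC library 1, 0.141 without siNC library 3 and 0.0622 with no filter on low values. In the authors' deposited table its adjusted p is 0.0190.

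JAM-A (F11R), an immunoglobulin-type adhesion receptor, was at 11761, 10817 and 11206 normalized counts in siBRD8 libraries, against 9727, 9745 and 10230 in siNC libraries. These do not overlap either, but the 1.14-fold difference (95% interval 1.02 to 1.26) did not pass after adjustment (log2 fold change 0.19, SE 0.0677; limma, adjusted p = 0.0907). Another annotated gene on the same strand shares 36.6% of the F11R exon bases in GENCODE release 29. Occludin (OCLN), a membrane protein of the tight junction strand, was at 8016, 7494 and 7959 normalized counts in siBRD8 libraries, against 7510, 6435 and 7263 in siNC libraries. The lowest siBRD8 value falls just below the highest siNC value, and the log2 fold change of 0.15 did not pass (SE 0.0792; limma, adjusted p = 0.231). ZO-1 (TJP1), the scaffold that ties these membrane proteins to actin, was at 2306, 2047 and 2315 normalized counts in siBRD8 libraries, against 2455, 1792 and 2355 in siNC libraries. Library 2 was the lowest of each group, and the fold change interval of 0.840 to 1.23 lies on both sides of no change (limma, adjusted p = 0.905).

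The departure of library 2 from its group differed between the genes and went with transcript length. In siNC library 2 the log2 value minus the mean of siNC libraries 1 and 3 was -1.04 for CTNND1 (6553 bases), -0.42 for TJP1 (7950 bases), -0.20 for OCLN (6438 bases) and -0.18 for CDH1 (4889 bases). It was 0.13 for EPCAM, whose transcript of 1724 bases is the shortest. Over the 9 genes the Spearman correlation between length and this departure was -0.87 in siNC library 2, and -0.82 for the like departure of siBRD8 library 2. Both are descriptions, since the genes share the libraries. After a correction of each library for length and GC content, 6 of the 9 genes were called higher and 0 lower, where 17.3% and 17.4% of all genes were called higher and lower. The added genes were OCLN (log2 fold change 0.27, limma adjusted p = 0.00221), F11R (0.23, 0.00449) and CTNNA1 (0.15, 0.0441). CDH1 and CTNNB1 then had log2 fold changes of 0.52 and 0.53.

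**Figure D2:**
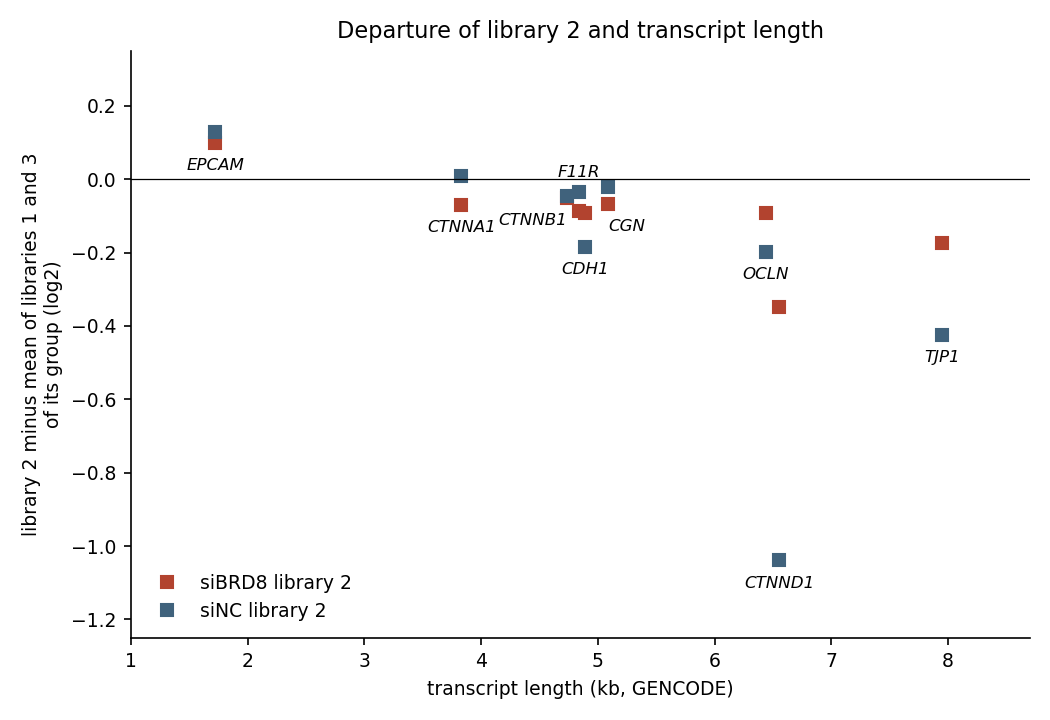
Departure of library 2 from the mean of libraries 1 and 3 of its own group (log2 of normalized count plus 1) against transcript length in kilobases, for the 9 junction core genes, with siBRD8 in red and siNC in blue. The longer transcripts lie lower, with CTNND1 at -1.04 and TJP1 at -0.42 in siNC library 2 and the short EPCAM transcript above 0 in both groups.

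Levels of different genes can be compared only per length of transcript. By normalized counts per kilobase, EPCAM stood highest, at 12432 ± 596 in siBRD8 and 12476 ± 677 in siNC libraries (SD, n = 3 each). CTNNA1 followed at 10243 ± 459 in siBRD8 and 9350 ± 213 in siNC libraries, and CDH1 at 4510 ± 185 in siBRD8 and 3225 ± 232 in siNC libraries. CTNNB1 was at 2865 ± 72.9 in siBRD8 and 2091 ± 61.8 in siNC libraries. Then came F11R at 2329 in siBRD8 and 2048 in siNC libraries, CGN at 1800 in siBRD8 and 1523 in siNC, OCLN at 1215 in siBRD8 and 1098 in siNC, TJP1 at 280 in siBRD8 and 277 in siNC, and CTNND1 last at 83.8 in siBRD8 and 110 in siNC libraries. The order of the 9 was the same in both groups. Neighbours in this order were apart in every library, with 1 exception: in siNC libraries the ranges of CTNNB1 and F11R overlapped, whereas in siBRD8 libraries they did not. These levels depend on the transcript taken for the length, here the longest coding one of the GENCODE basic set. The last place of CTNND1 is uncertain too, since how reads in exons shared with TMX2-CTNND1 were counted is not given.

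The paralogs of the junction genes show whether related genes moved alike. Of 16 listed, 13 were tested, 4 rose and 0 fell (limma), beside 10.1% and 8.93% of all genes tested. The median log2 fold change of the 13 was 0.12. The rises numbered 2 to 4 when single libraries were left out, the fewest without siNC library 3. N-cadherin (CDH2), the classical cadherin of neural and mesenchymal cells, rose most, to 193, 175 and 181 normalized counts in siBRD8 libraries, against 98.6, 66.9 and 98.6 in siNC libraries (log2 fold change 1.07, SE 0.168; limma, adjusted p = 0.00360). Its level stayed far below that of CDH1: the log2 ratio of CDH1 to CDH2 was 6.90 ± 0.074 in siBRD8 and 7.49 ± 0.21 in siNC libraries (SD, n = 3 each). P-cadherin (CDH3) was at 4384 ± 95.3 in siBRD8 and 4406 ± 77.1 in siNC libraries (SD, n = 3 each), with adjusted p = 0.951 in limma. The log2 ratio of CDH1 to CDH3 was 2.32, 2.24 and 2.42 in siBRD8 libraries and 1.92, 1.69 and 1.90 in siNC libraries, without overlap (exact two-sided permutation test, p = 0.1, adjusted p = 0.24). As CDH3 was level, this difference of 0.49 restates the CDH1 rise and is no further result.

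Plakoglobin (JUP), the beta-catenin relative shared by adherens junctions and desmosomes, was at 22139 ± 597 normalized counts in siBRD8 and 21716 ± 1531 in siNC libraries (SD, n = 3 each) and did not pass (limma, adjusted p = 0.818). The log2 ratio of CTNNB1 to JUP was -0.67, -0.78 and -0.67 in siBRD8 libraries and -1.07, -1.27 and -1.05 in siNC libraries, again without overlap (exact two-sided permutation test, p = 0.1, adjusted p = 0.24). With JUP nearly level, this difference of 0.42 mostly restates the CTNNB1 rise. In the p120 family CTNND2, better known from neurons, rose to 1069, 881 and 917 normalized counts in siBRD8 libraries, against 745, 618 and 651 in siNC libraries (log2 fold change 0.51; limma, adjusted p = 0.0121, and 0.0580 without siNC library 3). ARVCF and PKP4 did not pass, at log2 fold changes of -0.03 and -0.10.

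Of the ZO scaffolds, ZO-3 (TJP3) rose to 2053, 2820 and 2471 normalized counts in siBRD8 libraries, against 1692, 1867 and 1601 in siNC libraries (log2 fold change 0.50, SE 0.119; limma, adjusted p = 0.0202). Its call ended without siBRD8 library 2 or 3 (0.0693 and 0.0736) and without siNC library 1 or 3 (0.0566 and 0.0900). In the occludin family MARVELD3 rose to 646, 684 and 632 normalized counts in siBRD8 libraries, against 484, 488 and 489 in siNC libraries (log2 fold change 0.42, SE 0.0797; limma, adjusted p = 0.00774). Exons of PHLPP2 on the opposite strand cover 16.6% of its exon bases. Tricellulin (MARVELD2), which seals corners where cells meet, had a log2 fold change of 0.08, the paracingulin gene CGNL1 0.28 and JAM3 -0.28, and none of them passed. CTNNA2 was at 0 reads in all 6 libraries, and CTNNA3 and JAM2 were below the filter.

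**Figure D3:**
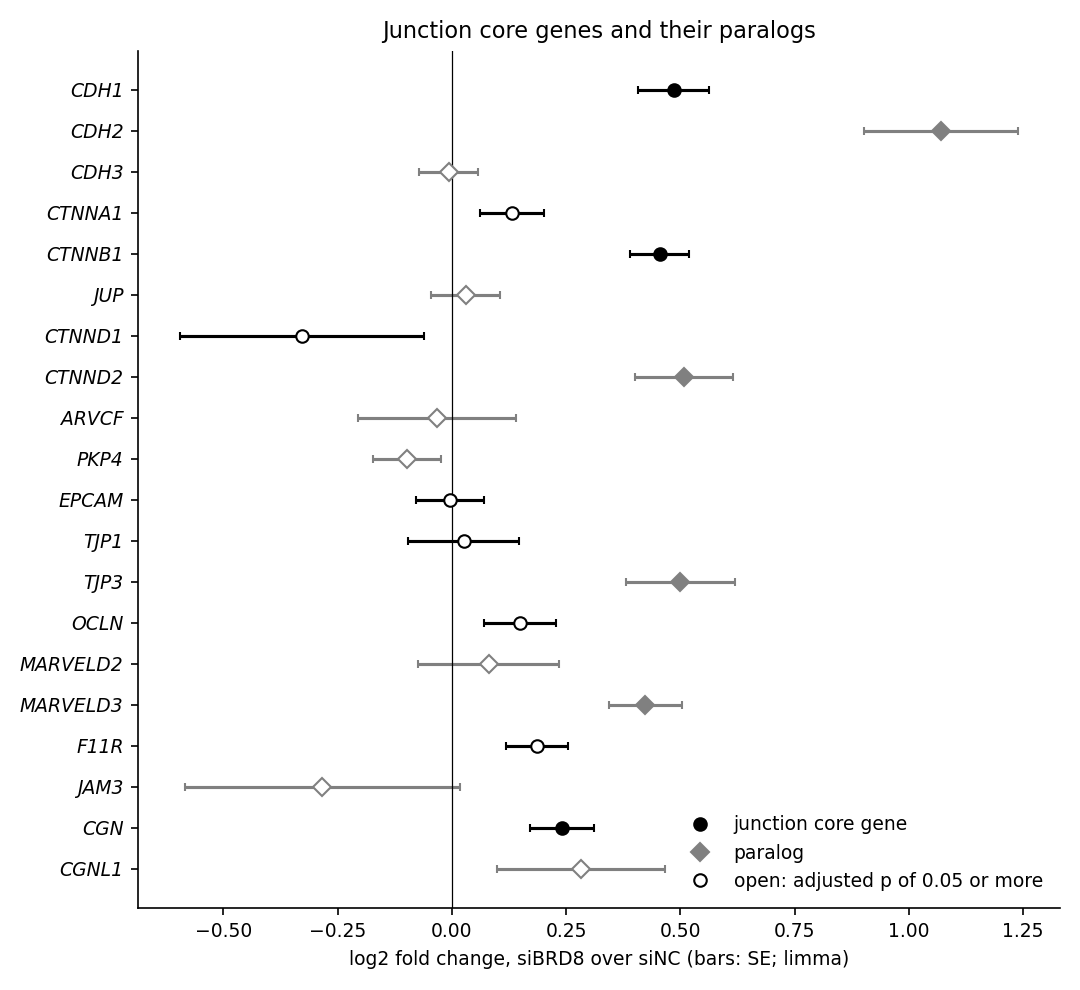
Log2 fold change of siBRD8 over siNC (limma, bars show the SE) for the 9 junction core genes (circles) and paralogs of theirs (grey diamonds), with filled symbols for an adjusted p under 0.05. CDH1, CTNNB1 and CGN are the filled circles, and CDH2 at 1.07 lies farthest to the right.

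**Figure D4:**
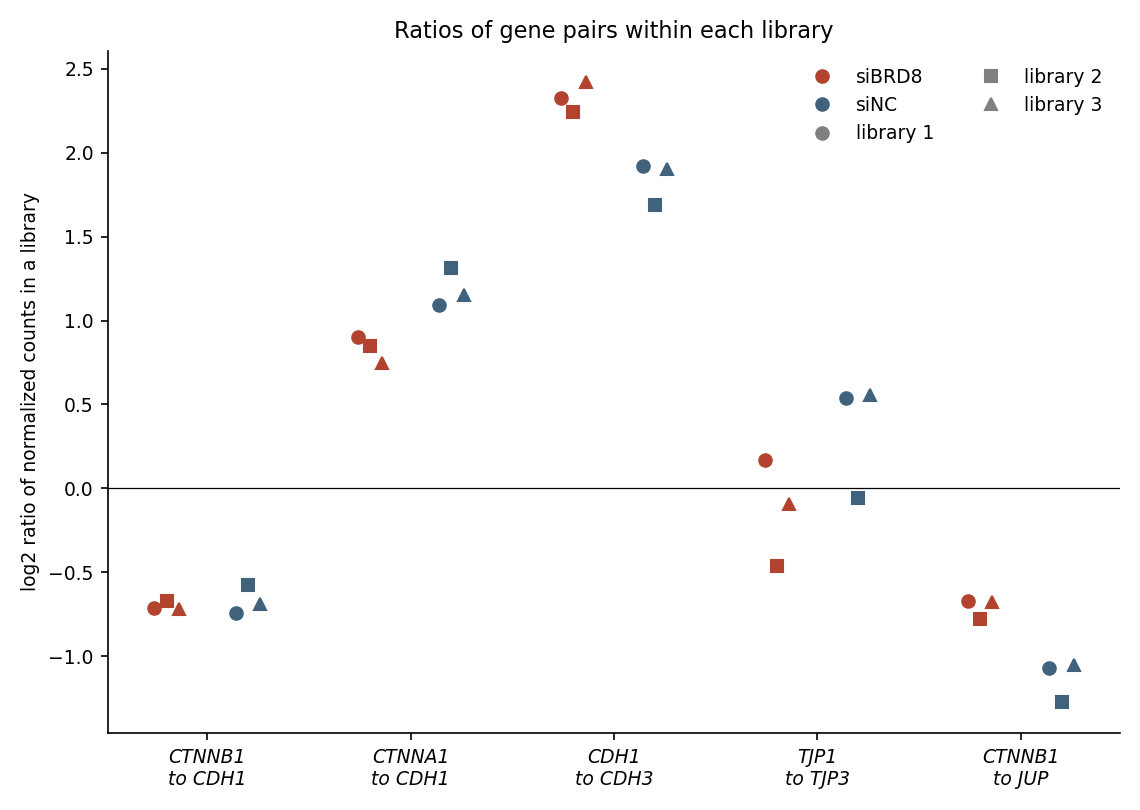
Log2 ratio of 2 genes within each library for 5 of the 12 pairs compared, siBRD8 in red left of siNC in blue, with the library number as the symbol shape. The ratios of CTNNA1 to CDH1, CDH1 to CDH3 and CTNNB1 to JUP do not overlap between the groups, while those of CTNNB1 to CDH1 and TJP1 to TJP3 do. Of the pairs not drawn, CTNND1 to CDH1 and CDH1 to CDH2 do not overlap either.

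The wider adherens junction list, which holds the nectins, vinculin, zyxin and other plaque proteins, held calls in both directions. Of 24 genes, 3 rose and 1 fell (limma), beside 10.1% and 8.93% of all genes tested, with a median log2 fold change of 0.04. Nectin-1 (PVRL1) rose to 1240, 1094 and 1195 normalized counts in siBRD8 libraries, against 885, 868 and 936 in siNC libraries (log2 fold change 0.39; limma, adjusted p = 0.0117, and 0.0566 without siBRD8 library 3). The nectin-like receptor PVR and the LIM protein AJUBA rose by 0.24 each, and SSX2IP, an afadin partner, fell by 0.42 on the log2 scale. The calls of PVR and AJUBA ended without any single library other than siNC library 2, at adjusted p of 0.0688 to 0.174 and 0.0878 to 0.141, and that of SSX2IP without siBRD8 library 1 or 2 or siNC library 1 or 3, at 0.0852 to 0.121. Vinculin (VCL), which strengthens the actin link of alpha-catenin, was at 21081 ± 1276 in siBRD8 and 20859 ± 2270 in siNC libraries (SD, n = 3 each; named after its values were seen). Without siNC library 2, 5 genes rose and 4 fell, where 15.9% and 18.1% of all genes did. Without each other library 0 or 1 rose and 0 or 1 fell.

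Of 32 further tight junction and polarity genes, 30 were tested, 3 rose and 2 fell (limma), beside 10.1% and 8.93% of all genes tested. The median log2 fold change of the 30 was -0.04. The actin-binding protein synaptopodin (SYNPO) rose to 348, 271 and 249 normalized counts in siBRD8 libraries, against 136, 140 and 169 in siNC libraries (log2 fold change 0.95; limma, adjusted p = 0.00369). ILDR1, a receptor of tricellular junctions, rose by 0.32 on the log2 scale (limma, adjusted p = 0.0302), while the exchange factor ARHGEF2, which binds cingulin, fell by 0.32 (0.0193) and the polarity scaffold LIN7C fell by 0.42 (0.0235). The ILDR1 call ended without siBRD8 library 2 or 3 or siNC library 3, at 0.0981 to 0.130. That of ARHGEF2 ended without siBRD8 library 2 or 3 or siNC library 1, at 0.0680 to 0.0834, and that of LIN7C without any single library other than siNC library 2, at 0.0555 to 0.106. The falls numbered 8 without siNC library 2, where 18.1% of all genes were called lower, and 0 or 1 without each other library. The rises numbered 1 without siBRD8 library 2 or 3 or siNC library 3, and 2 without siNC library 1.

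The repressor list of E-cadherin ranged widely in level. Of 9 listed, 6 were tested, 1 rose and 0 fell (limma), beside 10.1% and 8.93% of all genes tested. The median log2 fold change of the 6 was 0.13. SNAI1 was at 23.7 ± 4.10 normalized counts in siBRD8 and 32.9 ± 6.67 in siNC libraries, and ZEB1 at 92.8 ± 19.4 in siBRD8 and 61.6 ± 18.9 in siNC libraries (SD, n = 3 each); neither passed, and both were named after their values were seen. The E-box factor TCF3 rose by 0.27 on the log2 scale (limma, adjusted p = 0.0382), a call that ended without siBRD8 library 2 or 3 or siNC library 1 or 3, at 0.0768 to 0.160, which leaves 0 rises. After the length and GC correction 3 of the 6 repressors were called higher and 0 lower, beside 17.3% and 17.4% of all genes. ZEB1 was among them (log2 fold change 0.74, limma adjusted p = 0.0156). Of 12 epithelial activators and splicing factors, 4 rose and 0 fell, beside the same shares of all genes, with a median of 0.27. The pioneer factor FOXA1 rose to 909, 978 and 880 normalized counts in siBRD8 libraries, against 592, 560 and 622 in siNC libraries (log2 fold change 0.64; limma, adjusted p = 0.00163). The ETS factor ELF3 rose by 0.44 (0.0109, and 0.0592 without siNC library 3), OVOL1 by 0.34 (0.0178) and KLF4 by 0.34 (0.0209) on the log2 scale. OVOL1 lost its call without any single library other than siNC library 2, at 0.0522 to 0.0798, and KLF4 without siBRD8 library 2 or 3 or siNC library 3, at 0.0845 to 0.106. Without siNC library 2, 5 genes of this list rose and 2 fell, where 15.9% and 18.1% of all genes did. Its rises numbered 3 without siBRD8 library 1 or siNC library 1, and 2 without siBRD8 library 2 or 3. There was 1 rise without siNC library 3. After the length and GC correction 7 of the 12 rose and 0 fell, beside 17.3% and 17.4% of all genes.

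Genes that control cadherin turnover and the stability of beta-catenin were called at about the share of all genes tested, 10.1% higher and 8.93% lower. Of 14 turnover and shedding genes, 1 rose and 1 fell (limma), with a median log2 fold change of -0.02. The protease gene CTSB rose by 0.32 (adjusted p = 0.0258) and AP1M2, an adaptor of epithelial basolateral sorting, fell by 0.36 (0.0246) on the log2 scale. The CTSB call ended without any single library other than siNC library 2, at 0.0689 to 0.126. That of AP1M2 ended without any siBRD8 library or siNC library 3, at 0.0508 to 0.104. Without siNC library 2, 3 of these genes fell, where 18.1% of all genes were called lower. In the destruction complex, which marks beta-catenin for breakdown, 1 of 12 tested genes rose and 2 fell, with a median of -0.12. The ubiquitin ligase subunit BTRC was at 508, 466 and 509 normalized counts in siBRD8 libraries, against 687, 615 and 650 in siNC libraries (log2 fold change -0.40; limma, adjusted p = 0.0147). AMER1 fell by 0.50 (0.0245) and APC2 rose by 0.59 (0.0187) on the log2 scale. Calls ended for BTRC without siBRD8 library 2 or siNC library 1 or 3 (0.0566 to 0.0683), for AMER1 without siBRD8 library 2 or 3 or siNC library 1 or 3 (0.0780 to 0.110), and for APC2 without any single library other than siNC library 2 (0.0537 to 0.0826). The falls of the list numbered 4 without siNC library 2, where 18.1% of all genes were called lower. They numbered 2 without siBRD8 library 1, 1 without siBRD8 library 3 and 0 without each other library.

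Wnt target genes of beta-catenin were called in both directions. Of 15 listed, 8 were tested, 2 rose and 1 fell (limma), beside 10.1% and 8.93% of all genes tested. The median log2 fold change of the 8 was 0.07. The Wnt antagonist DKK1 rose to 5910, 5835 and 5792 normalized counts in siBRD8 libraries, against 4269, 4080 and 4485 in siNC libraries (log2 fold change 0.45; limma, adjusted p = 0.00285). TNFRSF19 fell to 2042, 2062 and 2228 in siBRD8 libraries, against 3555, 3050 and 3587 in siNC libraries (log2 fold change -0.68; limma, adjusted p = 0.00133). RNF43, a feedback inhibitor that removes Wnt receptors, rose by 0.42 on the log2 scale (limma, adjusted p = 0.0232), a call that ended without any single library other than siNC library 2, at 0.0599 to 0.0882, which leaves 1 rise. AXIN2, a widely used readout of the pathway that was named after its values were seen, was under the filter at 6.96 ± 2.86 normalized counts in siBRD8 and 3.36 ± 1.53 in siNC libraries (SD, n = 3 each).

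Several genes whose proteins bind EPCAM or act on it and its partners rose. Of 9 such genes, 4 rose and 0 fell (limma), beside 10.1% and 8.93% of all genes tested. The median log2 fold change of the 9 was 0.25. The tetraspanin TSPAN8 rose to 23735, 23246 and 22297 normalized counts in siBRD8 libraries, against 14657, 17318 and 15184 in siNC libraries (log2 fold change 0.56; limma, adjusted p = 0.00249). CLDN7 rose by 0.39 (0.0226), CLDN1 by 0.33 (0.0162) and the protease inhibitor SPINT1 by 0.34 (0.0338) on the log2 scale. The calls of CLDN7 and SPINT1 ended without any single library other than siNC library 2, at 0.0514 to 0.104 and 0.0758 to 0.144, and that of CLDN1 without siBRD8 library 2 or 3 or siNC library 3, at 0.0665 to 0.0840. Without siNC library 2 the rises numbered 7, where 15.9% of all genes were called higher. They numbered 2 without siBRD8 library 1 or siNC library 1, and 1 without siBRD8 library 2 or 3 or siNC library 3.

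The genes whose levels followed CDH1 most closely over the 6 libraries were ranked by the Pearson correlation of log2 values among 13080 genes whose mean reached 50 normalized counts. The ranking is a description, since the 2 groups are apart and 973 of these genes had a correlation over 0.9. The first 5 were PLEKHB2, LINGO2, KITLG, SCEL and RND3, at 0.999, 0.999, 0.999, 0.999 and 0.998. KITLG, the ligand of the KIT receptor, was at 2731, 2467 and 2966 normalized counts in siBRD8 libraries, against 1322, 905 and 1323 in siNC libraries, and SCEL, the cornified envelope protein sciellin, at 839, 803 and 857 in siBRD8 libraries, against 634, 558 and 645 in siNC libraries. RND3, which loosens actin fibres, was at 2387, 2351 and 2495 in siBRD8 and 2022, 1851 and 2006 in siNC libraries. In each of them library 2 was the lowest of its group, as it was for CDH1. That comes with picking them by likeness to CDH1 over the same libraries. CTNNB1 came in place 145, with a correlation of 0.980, and CGN in place 961, with 0.901.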

How the data were processed

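RNA-seq was measured in 6 Calu3 libraries, and the sample titles gave the groups and the replicate numbers. The shared extraction protocol in the labels speaks of another bronchial epithelial cell, and the titles were followed. STAR 2.6, featureCounts 1.6.3, DESeq2 1.22.1 and the build hg19 are named, without roles, in the submitters' processing notes, and nothing read here states the annotation or strand setting. The deposited values are a normalized signal: the authors scaled each library's counts per gene by its size factor. The authors' deposited comparison beside them holds a log2 fold change and its SE, a test score of opposite sign, and the p-value before and after adjustment.

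Whole reads were recovered for 100% of values within 0.01 of a read, and a floor of 3 reads equals 2.84 to 3.24 normalized counts, for counting error alone. Because the values were normalized, limma 3.58.1 (R 4.3.3), its variance trend on, was run on log2 of the value plus 1 over the 15354 genes whose mean reached 10, which understates changes of low genes. Treatment was the only term, and the threshold was an adjusted p of 0.05 over all genes tested. On the recovered reads, the count test of edgeR 4.0.16 called 2969 genes and DESeq2 1.42.0 called 3336, against 2920 in limma. The model was tested on simulated data. Ratios within a library were compared by exact permutation over 12 pairs. Within groups the chi-square between libraries was 6.29 to 48.7 per degree of freedom, above sampling noise, and no 2 libraries were merged.

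The 9 members and the gene lists were chosen with earlier results of these data known. Named were BRD8, the 9 members, their tested paralogs, up to 4 genes per further list with the smallest adjusted p (2 where none passed), and the 5 genes most like CDH1; some of these are not reported here. Of 184 listed symbols, 7 were matched by an older symbol. Lengths and overlaps came from GENCODE release 29, which is on another build, so the files' genes carry no coordinates. It gave a length for 96.5% of the genes tested.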

Additional observations from a re-analysis of the deposited data

How the results depend on the processing

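CDH1 and CTNNB1 kept their direction and their call under all 18 alternatives, which changed the pseudocount, filter, scaling, test, replicate block, length and GC correction and the libraries used, and BRD8 did as well. For the 9 genes, those higher numbered 6 after the length and GC correction and 5 with the replicate block and that correction, and 2 to 3 when single libraries were left out, while those lower numbered 0 to 1, the 1 being CTNND1 without siNC library 2. Over all genes, calls numbered 1360 to 5229 when single libraries were left out (832 to 2445 higher and 528 to 2784 lower), fewest without siNC library 3 and most without siNC library 2. After the length and GC correction they numbered 5147 (2564 higher and 2583 lower), and 5350 with the replicate block beside it (2612 and 2738). The cause was not tested. Same-numbered libraries deviated together at correlations of -0.08, 0.34 and 0.15, so the numbers were not taken as pairs, and not every library correlated best with its own number. The 0.34, of siBRD8 library 2 with siNC library 2, was the highest of any pairing. Library 2 of each group also departed from its group with transcript length over the 9 genes. Whether the libraries numbered 2 shared a batch was not tested. With the replicate block alone 3901 genes were called, and 3 of the 9 genes higher and 0 lower, as without it. Near zero, signs turned without any call. EPCAM was at 0.00609 in edgeR, 0.000861 with TMM and -0.0374 to 0.0383 with single libraries left out, TJP1 at -0.12 to 0.11, and MARVELD2 at -0.10 to 0.18. CDH3 was at 0.00443 in edgeR and -0.0204 to 0.0104 with libraries left out, ARVCF at 0.00675 in edgeR and -0.19 to 0.16, and JUP at -0.0361 after the length and GC correction, with and without the replicate block, and -0.0111 to 0.0858 with libraries left out. The differences of log2 ratios ranged from -0.0680 to 0.0154 for CTNNB1 to CDH1, from -0.16 to 0.10 for CGN to CGNL1 and from -0.000515 to 0.18 for OCLN to MARVELD2. Replicates differed by more than counting noise, so depth alone does not set the precision of these values.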
